A study of Mus musculus with 11 samples.

Results

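Matrix metalloproteases (MMPs), ADAM and ADAMTS proteases and their tissue inhibitors (TIMPs) were followed in mouse livers in which a constitutively active YAP was switched on. Members were taken by symbol: every row named Mmp, Adam or Adamts with a number, and the genes Timp1 to Timp4. This gave 79 of 20893 genes, of which 23 were Mmp, 33 Adam, 19 Adamts and 4 Timp genes. A member was tested if it reached at least 0.5 eRPKM in at least 3 libraries, which 42 members did (14 Mmp, 13 Adam, 12 Adamts and 3 Timp), among 14244 genes tested in all. The unit, eRPKM, is the authors' exon-based RPKM: exonic reads divided by exon length in kilobases and scaled to library size.

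All mice were on the C57BL/6 background, carried the ROSA26-rtTA-IRES-EGFP allele and ate doxycycline food. The 4 control livers (WT, without the tetYAP transgene) had 7 days of doxycycline, the 4 livers named 3d carried tetYAP and had 3 days, and the 3 livers named 7d carried tetYAP and had 7 days. No control had 3 days of doxycycline. Per the methods of the study, the transgene encodes YAP S127A, and Alb-CRE, which is active in hepatocytes, removes a stop in front of rtTA. The induction was thus aimed at hepatocytes, while the RNA came from homogenized whole livers. Ages were not given in the sources used here.

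MMPs are zinc-dependent enzymes that cut collagens and other matrix proteins, either secreted or held at the membrane. ADAMs are membrane proteases that release the outer parts of receptors, ligands and adhesion molecules, and ADAMTS enzymes are secreted and cut proteoglycans, procollagens and von Willebrand factor. TIMPs bind the active site of these enzymes and block it. In the liver, these genes are best known from fibrosis, from regeneration and from the inflammatory infiltrate, and many are made by stellate cells, macrophages, neutrophils or endothelial cells rather than by hepatocytes.

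After 3 days of YAP induction no member passed the test, whereas after 7 days 16 of the 42 tested members had risen over controls and none had fallen. Among those that rose were Mmp9, a gelatinase, with the largest log2 fold change of the 16, and Timp2, an inhibitor that also takes part in the activation of pro-MMP2 by Mmp14, which rose as well. Summed over each family, the mean level at 7 days against controls was 137 against 72.2 eRPKM for the Mmp genes, 145 against 92.9 for the Adam genes, 59.3 against 29.0 for the Adamts genes and 68.9 against 16.1 for the Timp genes. The 3-day means were 70.4, 96.0, 29.3 and 15.9 eRPKM in the same order. For all 4 sums, each of the 3 livers at 7 days lay above every control and every 3-day liver. Of single genes tested, 36.7% had all 7-day livers above all controls, and 31.3% above all 3-day livers. Few genes weighed heavily in 2 of the sums. From controls to 7 days, mean Timp2 went from 6.08 to 58.5 eRPKM, Mmp9 from 0.505 to 27.0 and Mmp14 from 15.7 to 42.2. Timp3 went from 9.59 to 8.08 and Mmp19 from 28.2 to 21.9.

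The libraries held 1251396 to 5495697 reads on genes in controls, 2660233 to 3681416 in 3-day livers and 5312486 to 5941357 in 7-day livers (medians 3152456.5, 3652719.5 and 5356541). Low-level reads were unequal: of 6649 genes below the filter, 50.4%, 58.6% and 76.3% had a read in control livers 1 and 2 and in 7-day liver 2, against 18.4 to 28.5% in the other libraries. More reads fell on Xist than on Ddx3y in 2 of 4 controls, 2 of 4 livers at 3 days and all 3 at 7 days. Yap1 itself stayed between 13.9 and 21.1 eRPKM in controls and between 17.4 and 19.0 at 7 days (log2 fold change 0.03, adjusted p = 0.917 by limma). Whether reads of the transgene were counted in Yap1 is not given in the sources used here, so this value does not measure the induction. The YAP target Ctgf went from 5.20 to 14.2 eRPKM in controls to 87.3 to 103 at 7 days (log2 fold change 3.49, adjusted p = 1.25e-05). At 3 days it had 15.3 to 34.2 eRPKM (log2 fold change 1.41, adjusted p = 0.0833 by limma). Cyr61, another YAP target, had 5.76 to 14.3 eRPKM in controls and 26.8 to 53.4 at 3 days (1.99, adjusted p = 0.0117). For both genes the 3-day livers lay above all controls, yet neither passed the threshold of 0.01 for a call at 3 days. All 5 hepatocyte markers were present, with a summed level of 980 to 3019 eRPKM in controls, 1201 to 1537 in 3-day livers and 799 to 896 in 7-day livers, where Ttr had fallen. Among controls this sum ran against depth: it was highest in liver 4, with the fewest reads, and lowest in liver 2, with the most. Alb, one of these markers, had 918 eRPKM in control liver 4 (1251396 reads) and 268 in control liver 2 (5495697 reads). It had 234 to 258 eRPKM in the 7-day livers (5312486 to 5941357 reads). The part of depth in the lower 7-day sum was not tested. The labels do not say that the livers of a group came from separate animals, so the p-values measure the spread between these livers.

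Levels in control livers spanned a wide range, as seen in the plot of all tested members by level. Adam9, a widely expressed sheddase, was the highest member in controls at 32.6 eRPKM ± 6.87 (SD, n = 4), followed by Mmp19, a secreted MMP, at 28.2 ± 6.25. These neighbours differed by less than their spread. Adam10, the main sheddase of Notch receptors, came next at 20.2 ± 2.44, then Mmp14 at 15.7 ± 2.97 and Adam17, which releases tumour necrosis factor and EGF receptor ligands, at 14.4 ± 3.17. Mmp14 and Adam17 did not differ beyond their spread. Timp2 stood at rank 10 in controls and at rank 1 at 7 days, and Mmp9 moved from rank 34 to rank 5.

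**Figure D1:**
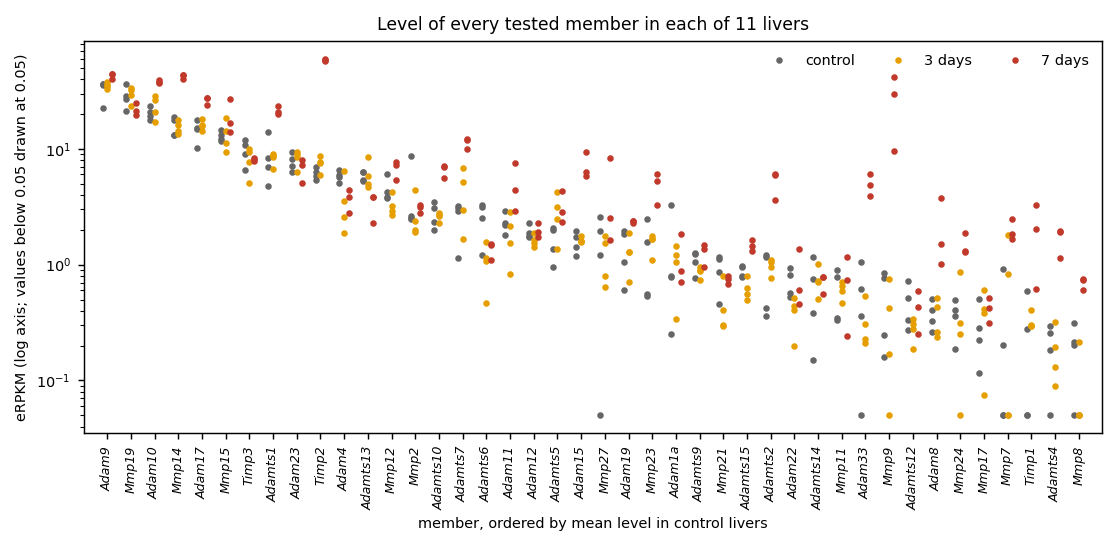
Level in eRPKM (log axis) of the 42 tested members in each of the 11 livers, ordered by the mean of the controls; grey, orange and red points are control, 3-day and 7-day livers, and values under 0.05 are drawn at 0.05. Timp2 and Mmp9 stand out as red points far above the others of the same gene.

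The first question of the time series is what changed within 3 days. None of the 42 tested members was called at 3 days by limma. A call needed both an adjusted p below 0.01 and a log2 fold change beyond 0.5 in either direction (background 0.0421% of all genes higher, 0.0% lower). At an unadjusted p under 0.05 there were 3 members, Adamts6, Adam4 and Mmp21, and 1718 of all 14244 genes. Limma-voom on the reads recovered from the eRPKM also called 0 members (0.00702% of all genes higher, 0% lower). The median log2 fold change of the members was -0.01, against 0.02 for all genes tested. All 3-day livers lay above all controls for 0 members (background 3.38%) and below them for 1 (background 2.25%).

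The 3 members with the largest log2 differences at 3 days were chosen after their values were seen. Adamts6, a secreted ADAMTS, had 2.53, 3.27, 3.15 and 1.21 eRPKM in controls and 1.56, 0.470, 1.13 and 1.08 in the 3-day livers (log2 fold change -0.95 ± 0.31 SE, adjusted p = 0.226). Control liver 4 fell within the range of the 3-day livers, so the groups overlapped. Adam4 had 5.98, 6.58, 5.02 and 5.66 eRPKM in controls and 1.88, 3.56, 6.45 and 2.6 at 3 days (log2 fold change -0.73 ± 0.30 SE, adjusted p = 0.354). Its 3-day liver 3 lay within the controls and the other 3 below them. Adamts5, which cuts aggrecan and versican, had 1.35, 2.09, 1.99 and 0.957 eRPKM in controls and 4.27, 3.13, 1.37 and 2.47 at 3 days (log2 fold change 0.62 ± 0.32 SE, adjusted p = 0.473). Its groups overlapped through 3-day liver 3.

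The second question is what changed by 7 days against controls. The 16 members that rose are 38.1% of those tested, against a background of 18.0% of all 14244 genes called higher and 5.77% called lower. No member was lower by limma. Limma-voom called 14 higher and 0 lower, where it called 19.7% of all genes higher and 6.66% lower. An unadjusted p under 0.05 in either direction was reached by 24 of the 42 members and by 6744 of the 14244 genes. Of the 42 members, 33 had a log2 fold change above 0, and the median was 0.75 against 0.26 over all genes tested. All 7-day livers lay above all controls for 22 members (background 36.7%) and below for 2 (background 13.3%). Of the tested members, 7 had reached the filter only through the 7-day livers, and 4 of these (Adam8, Adamts4, Mmp24 and Timp1) were called, as were 12 of the other 35. A member tested only because it is high at 7 days had to differ, so the counts and the median describe the tested members and support nothing further. In a bulk sample, more cells of a type and more RNA per cell cannot be told apart.

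**Figure D2:**
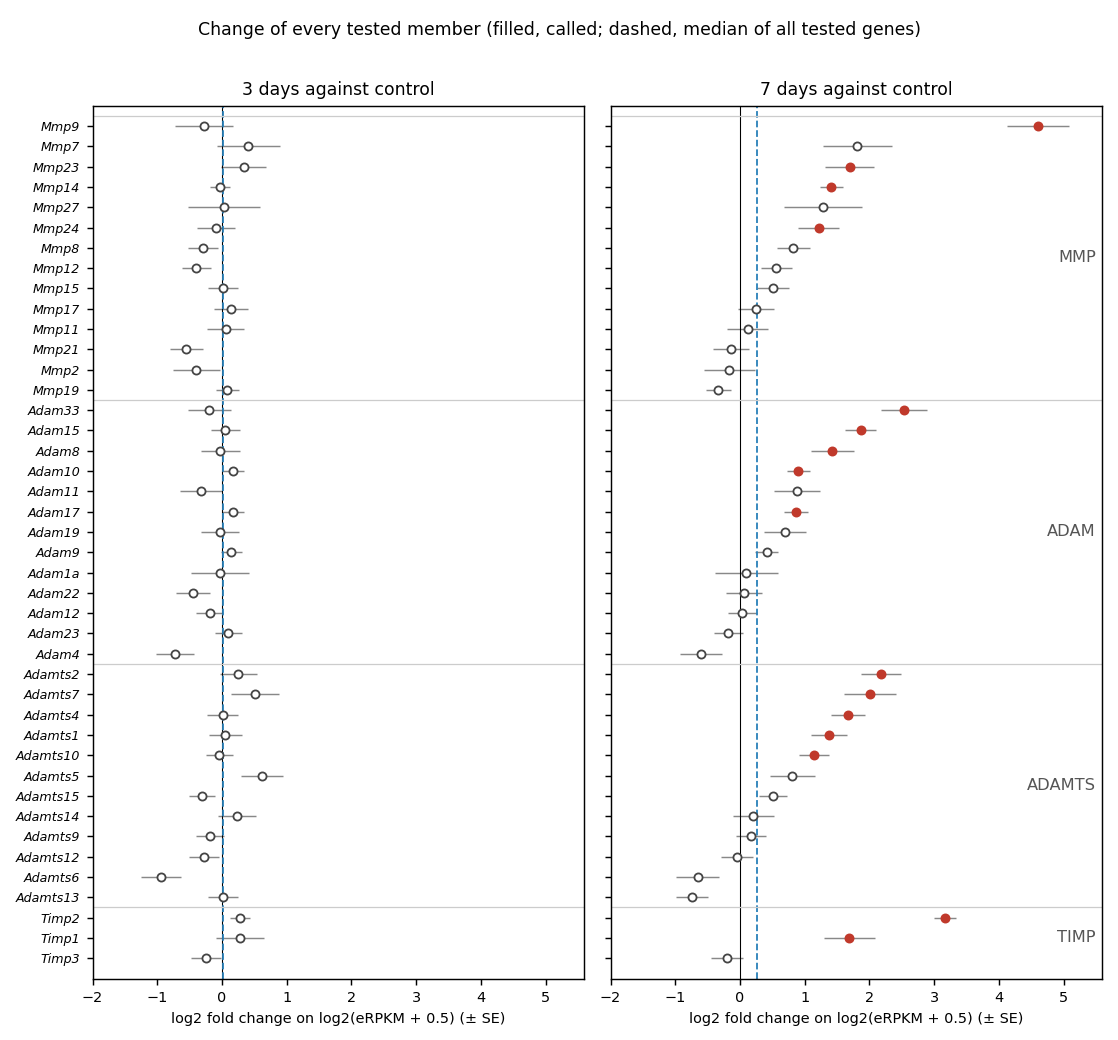
Log2 fold change (horizontal axis, on log2(eRPKM + 0.5), ± SE) of each tested member against controls at 3 days (left) and 7 days (right), grouped by family; filled points were called, and the dashed line is the median of all tested genes. No point is filled at 3 days, and 16 are filled at 7 days, all to the right of 0.

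Both gelatinases were measured, and they differed. Mmp9 (chr2:164766280-164781350, plus strand, mm9), which cuts denatured collagen and type IV collagen, had 0.159, 0.843, 0.770 and 0.247 eRPKM in controls, 0, 0.170, 0.756 and 0.420 at 3 days, and 41.8, 9.51 and 29.6 at 7 days. The lowest 7-day liver, liver 2, was above every other liver, and the groups did not overlap. Behind these values were 1 to 15 reads in controls, 0 to 9 in 3-day livers and 183 to 724 in 7-day livers. The mean at 7 days was 53.4 times that of controls (log2 fold change 4.61 ± 0.48 SE, adjusted p = 2.11e-05). Mmp2, the other gelatinase, was not called, at 4.06 eRPKM ± 3.07 (SD, n = 4) in controls and 3.06 ± 0.242 (SD, n = 3) at 7 days (log2 fold change -0.17, adjusted p = 0.769).

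Of 6 membrane-type MMPs, 4 were tested and 2 rose. Mmp14 (chr14:55050441-55060095, plus strand, mm9), the membrane collagenase that activates pro-MMP2, had 13.2, 18.7, 17.8 and 13.1 eRPKM in controls, 13.3, 14.1, 17.8 and 16.0 at 3 days, and 39.9, 43.7 and 43.2 at 7 days. The 7-day livers were close to each other and above all others (log2 fold change 1.41 ± 0.17 SE, adjusted p = 5.60e-05). Mmp24 was low, at 0.405, 0.492, 0.187 and 0.360 eRPKM in controls and 1.89, 1.29 and 1.32 at 7 days (log2 fold change 1.21 ± 0.32 SE, adjusted p = 0.00958), from 2 to 12 reads in controls. Its call was close to the threshold and was lost under 19 of 27 alternatives. Mmp15, another membrane-type MMP, had 14.5, 13.1, 11.6 and 12.1 eRPKM in controls and 14.0, 16.7 and 26.8 at 7 days, and was not called (log2 fold change 0.51 ± 0.25 SE, adjusted p = 0.124). Its groups overlapped, with 7-day liver 1 inside the controls.

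Among the remaining MMPs, Mmp23, a small membrane-anchored enzyme, rose from 1.56, 2.46, 0.562 and 0.541 eRPKM in controls to 3.28, 6.03 and 5.22 at 7 days (log2 fold change 1.69 ± 0.37 SE, adjusted p = 0.00346). Every 7-day liver was above every control, but control livers 3 and 4 held only 2 and 1 reads. Mmp19 had 28.5, 36.3, 26.9 and 21.2 eRPKM in controls and 24.7, 19.7 and 21.4 at 7 days, with overlap (log2 fold change -0.34 ± 0.19 SE, adjusted p = 0.183). Under median-ratio size factors it was called lower (log2 fold change -0.60).

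In the plot of the called members by liver, every 7-day liver is above every 3-day liver for all 16. Over all genes tested the share was 31.3%, but the 16 were picked as high at 7 days. Their order was thus nearly fixed in advance, and the shares cannot be compared. For Timp2, Adamts7, Adam10, Adam17, Adamts4, Adam8, Mmp24 and Mmp9 at least 1 of the 3-day livers was above or below all controls. The share of all genes with such a liver was not counted, so this is not read as an early change. In eRPKM, Timp2 shows the widest gap between the 7-day livers and all others.

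**Figure D3:**
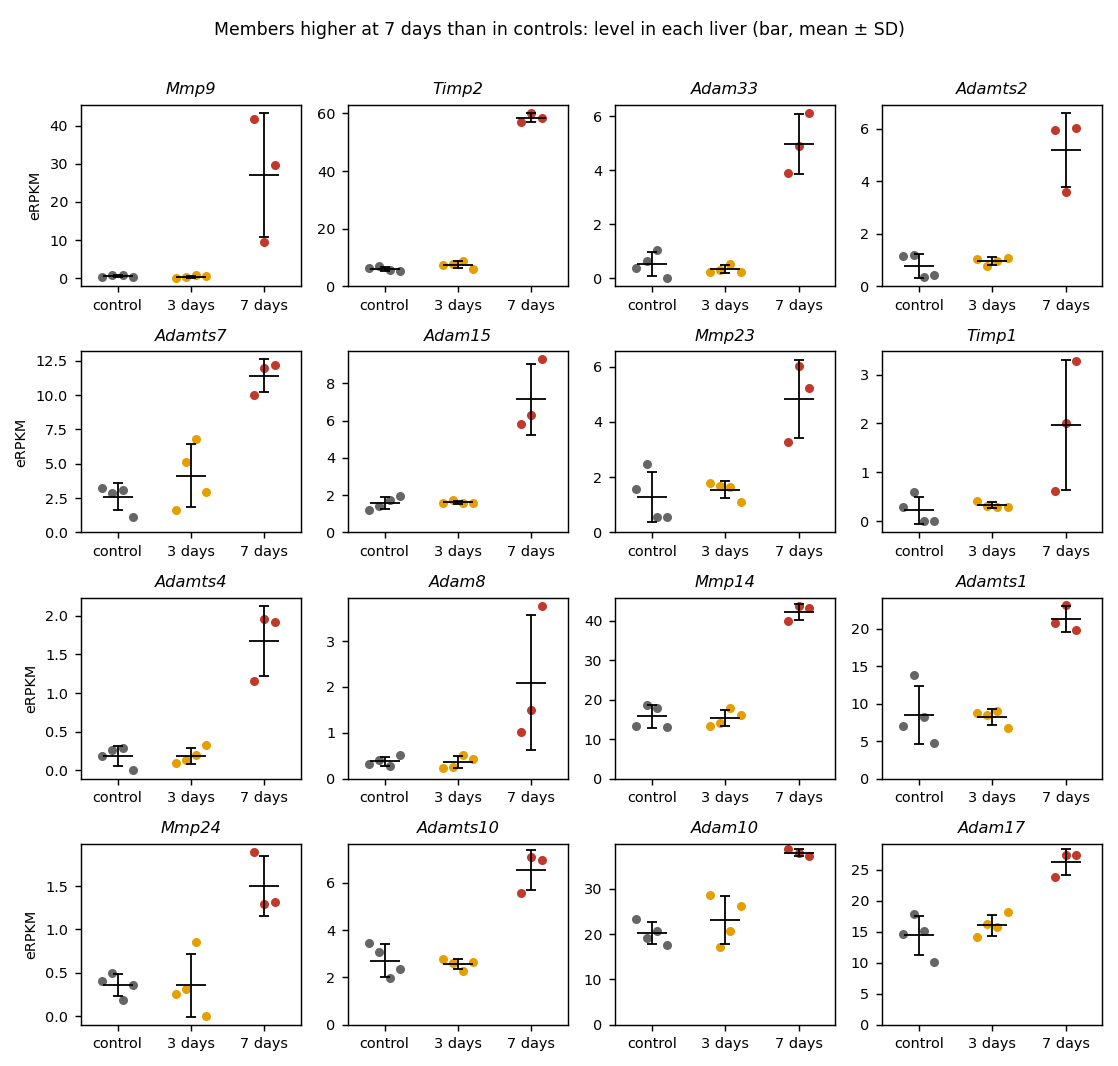
Level in eRPKM (vertical axes from 0, scaled per gene) of the 16 members called higher at 7 days, in each control (grey), 3-day (orange) and 7-day (red) liver; bars are mean ± SD. The red points lie above all grey points in every panel, by a wide margin for Mmp9 and Timp2 and narrowly for Timp1.

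Of the 4 inhibitors, Timp2 and Timp1 rose. Timp2 (chr11:118162383-118217054, minus strand, mm9) had 6.26, 6.91, 5.79 and 5.35 eRPKM in controls, 7.54, 7.75, 8.73 and 5.97 at 3 days, and 56.9, 60.1 and 58.6 at 7 days. The spread within groups was small beside the gap, and the mean at 7 days was 9.63 times that of controls (log2 fold change 3.17 ± 0.17 SE, adjusted p = 2.25e-07). Timp1, the inhibitor typically induced in injured liver, had 0.280, 0.594, 0 and 0 eRPKM in controls, 0.409, 0.30, 0.296 and 0.296 at 3 days, and 0.610, 2.02 and 3.28 at 7 days (log2 fold change 1.69 ± 0.40 SE, adjusted p = 0.00513). These came from 0 to 3 reads in controls and 3, 11 and 16 reads at 7 days, so no ratio is given, and the call was lost under 11 of 27 alternatives.

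Timp3, an inhibitor bound to the matrix that also blocks ADAM17, was not called and had 11.9, 10.8, 6.55 and 9.05 eRPKM in controls and 7.79, 8.10 and 8.36 at 7 days (log2 fold change -0.20 ± 0.25 SE, adjusted p = 0.559). Timp4 stayed below the filter, with 4, 2, 0 and 0 reads in controls, 0 reads in each 3-day liver and 4, 3 and 3 reads at 7 days. It was not tested.

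Of 9 ADAMs listed as sheddases, 8 were tested and 5 rose. Adam33 (chr2:130876327-130889550, minus strand, mm9), known as an asthma susceptibility gene, had 0.361, 0.614, 1.05 and 0 eRPKM in controls, 0.211, 0.310, 0.535 and 0.229 at 3 days, and 3.89, 4.87 and 6.10 at 7 days. No 7-day liver overlapped the others (log2 fold change 2.53 ± 0.35 SE, adjusted p = 0.000145). Adam15 (chr3:89142464-89153932, minus strand, mm9), which binds integrins and cuts cell-surface proteins, had 1.19, 1.42, 1.73 and 1.96 eRPKM in controls and 5.80, 6.29 and 9.31 at 7 days (log2 fold change 1.87 ± 0.24 SE, adjusted p = 8.33e-05). Its 3-day livers, at 1.56 to 1.75, lay within the controls.

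Adam8, a sheddase of leukocytes, was at 0.326, 0.404, 0.264 and 0.508 eRPKM in controls and at 1.01, 1.5 and 3.77 at 7 days (log2 fold change 1.43 ± 0.33 SE, adjusted p = 0.00450), from 2 to 7 reads in controls and 17 to 63 at 7 days. The groups did not overlap, but the 7-day livers differed among themselves by more than the distance of the lowest of them to the controls.

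The 2 best-studied sheddases rose by less but from high levels. Adam10 had 23.3, 19.2, 20.6 and 17.6 eRPKM in controls, 28.6, 17.1, 20.7 and 26.2 at 3 days, and 38.9, 37.8 and 37.2 at 7 days (log2 fold change 0.90 ± 0.18 SE, adjusted p = 0.00187). Adam17 had 14.7, 17.8, 15.1 and 10.2 eRPKM in controls, 14.1, 16.2, 15.7 and 18.2 at 3 days, and 23.8, 27.4 and 27.5 at 7 days (log2 fold change 0.86 ± 0.19 SE, adjusted p = 0.00298). For both genes all 7-day livers were above all others. Adam9 had 35.9, 35.7, 36.4 and 22.3 eRPKM in controls and 43.8, 40.1 and 44.1 at 7 days, without overlap, and was not called (log2 fold change 0.41 ± 0.17 SE, adjusted p = 0.0790).

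None of the 3 ADAMs that lack a protease active site (Adam11, Adam22 and Adam23) was called by limma or limma-voom at 7 days against controls, with 1 at an unadjusted p under 0.05. The highest of them in controls was Adam23, a receptor of neuronal LGI proteins. It had 7.16, 9.29, 8.14 and 6.34 eRPKM in controls and 8.08, 7.26 and 5.06 at 7 days, with overlap (log2 fold change -0.18 ± 0.22 SE, adjusted p = 0.544). Adam11 reached 7.48 eRPKM in 7-day liver 2, the library with the most low-level reads, against 2.87 and 4.40 in the other two.

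Of 12 ADAMTS enzymes tested, 5 rose. Adamts2, which removes the N-propeptide of fibrillar procollagens, lies at chr11:50415586-50621075 (plus strand, mm9). It had 1.16, 1.21, 0.363 and 0.419 eRPKM in controls, 1.05, 0.770, 0.949 and 1.09 at 3 days, and 5.96, 3.58 and 6.02 at 7 days (log2 fold change 2.18 ± 0.31 SE, adjusted p = 0.000175). The 7-day livers were above all others. Adamts14, a second procollagen N-propeptidase, had 0.612 ± 0.444 eRPKM (SD, n = 4) in controls and 0.706 ± 0.128 (SD, n = 3) at 7 days and was not called (adjusted p = 0.645).

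Of 5 tested ADAMTS enzymes that cut proteoglycans, Adamts1 and Adamts4 rose. Adamts1, also known for restraining vessel growth, had 6.98, 13.9, 8.25 and 4.76 eRPKM in controls and 20.7, 23.2 and 19.9 at 7 days (log2 fold change 1.37 ± 0.28 SE, adjusted p = 0.00192). Adamts4, an aggrecanase, had 0.182, 0.258, 0.295 and 0 eRPKM in controls and 1.15, 1.95 and 1.92 at 7 days (log2 fold change 1.67 ± 0.26 SE, adjusted p = 0.000371), from 0 to 6 reads in controls and 26 to 49 at 7 days. It reached the filter in 0 libraries outside the 7-day group. In both genes all 7-day livers stood above all controls and all 3-day livers.

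Adamts7, which cuts cartilage oligomeric matrix protein, had 3.23, 2.90, 3.09 and 1.13 eRPKM in controls, 1.66, 5.13, 6.84 and 2.94 at 3 days, and 10.0, 12.0 and 12.2 at 7 days (log2 fold change 2.01 ± 0.40 SE, adjusted p = 0.00187). Livers 2 and 3 of the 3-day group exceeded every control, and none reached a 7-day liver. Adamts10, which acts on fibrillin microfibrils, had 3.48, 3.07, 1.97 and 2.35 eRPKM in controls and 5.58, 7.10 and 6.97 at 7 days (log2 fold change 1.15 ± 0.23 SE, adjusted p = 0.00194). Adamts13, the protease of von Willebrand factor, made in liver by stellate cells, had 5.25, 6.25, 6.26 and 5.40 eRPKM in controls and 2.31, 3.83 and 3.82 at 7 days. All 7-day livers were below all controls, but the change missed the threshold (log2 fold change -0.74 ± 0.25 SE, adjusted p = 0.0327), while with median-ratio size factors it passed (log2 fold change -0.98).

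The scaling of the libraries bears on the direction of small changes. The median of all tested genes at 7 days was 0.26 as deposited, 0.03 with median-ratio size factors and -0.08 with quantile normalization, and the median of the members was 0.75, 0.54 and 0.22 in that order. With size factors 13 members were called higher and 2 lower (Adamts13 and Mmp19), and with quantile normalization 12 were higher and 5 lower (Adam23, Adam4, Adamts13, Adamts6 and Mmp19). Over all genes, the calls were 18.0% higher and 5.77% lower as deposited and 13.0% higher and 12.8% lower with quantile normalization.

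The 6 members Mmp9, Timp2, Mmp14, Adam33, Adam15 and Adamts2 were called at 7 days under all 28 alternatives, in both comparisons. The count of 16 fell to 9 without 7-day liver 2 or without 7-day liver 3, and to 8 with only the libraries with few low-level reads. It was also 8 with only the libraries with more Xist than Ddx3y (2 controls, 3 at 7 days) and 7 with log2 depth as a covariate. Leaving out single livers ended the call of Adam10 (adjusted p = 0.0104 without 7-day liver 1), Adamts1 (0.0118 without 7-day liver 2), Adam17 (0.0159 and 0.0178 without 7-day livers 2 and 3), Adamts10 (0.0115 and 0.0137, likewise) and Adamts7 (0.0101 and 0.0106, likewise). The calls of Adam8 (up to 0.0230, without control liver 1 or 3 or 7-day liver 3), Mmp23 (up to 0.0201, without control liver 3 or 7-day liver 2 or 3) and Timp1 (up to 0.0328, without control liver 3 or 4 or 7-day liver 2 or 3) were also lost. The call of Mmp24 was lost without any control or any 7-day liver (up to 0.0458), and without 3-day liver 1 or 2.

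Markers of other cell types moved at 7 days beside these genes. The summed level of the macrophage markers, of which 4 of 6 names are in the table, was 142 to 293 eRPKM in controls, 162 to 313 in 3-day livers and 508 to 579 in 7-day livers, with Cd68, Csf1r and Cd5l called higher. The neutrophil markers (5 of 6 in the table, 3 tested) summed to 8.30 to 18.8 eRPKM in controls, 6.44 to 15.0 in 3-day livers and 26.1 to 39.8 in 7-day livers, with S100a9 called higher. Elane and Mpo, which define neutrophil granules, were at 0 in all 3-day livers. The endothelial markers (5 of 5) summed to 53.4 to 105 eRPKM in controls, 67.4 to 107 in 3-day livers and 144 to 175 in 7-day livers, with Cdh5 and Lyve1 called higher.

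The biliary markers (5 of 5) summed to 37.5 to 49.0 eRPKM in controls, 40.5 to 84.5 in 3-day livers and 61.5 to 111 in 7-day livers, with Krt7 called higher. The stellate and fibroblast markers (7 of 7) summed to 155 to 215 eRPKM in controls, 129 to 261 in 3-day livers and 103 to 117 in 7-day livers, with Reln called lower. The T and B cell markers (6 of 6) summed to 2.46 to 7.29 eRPKM in controls, 2.56 to 4.01 in 3-day livers and 3.73 to 8.68 in 7-day livers, with 0 called by limma or limma-voom in any comparison. At an unadjusted p under 0.05 there were 0 at 7 days against controls, 1 at 3 days against controls and 1 at 7 days against 3 days. The part of these cell types in the levels of Mmp9, Timp2, Adam8 and the other members was not tested.

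The third question is which differences arose between 3 and 7 days, in a comparison that shares its 7-day livers with the one against controls. Here 14 members (33.3%) were higher at 7 days, with a background of 14.0% of all genes higher and 5.31% lower, and no member was lower by limma. Of the 14, Adam8, Adamts4, Mmp24 and Mmp8 had reached the filter only through the 7-day livers, the group where they are high. At an unadjusted p under 0.05 there were 24 members in either direction, and 6578 of all 14244 genes. Limma-voom called 19 members higher and 0 lower, where it called 19.1% of all genes higher and 6.24% lower. Counted by gene, 12 of the 14 were also called against controls. The 2 others were Mmp12 and Mmp8, while Adam17 (adjusted p = 0.0125), Adamts7 (0.0125), Mmp23 (0.0141) and Timp1 (0.0159) missed the threshold here. Mmp9 differed by 4.89 ± 0.48 (SE) on the log2 scale, Timp2 by 2.89 ± 0.17 and Mmp14 by 1.44 ± 0.17. For these 3 genes every 7-day liver was above every 3-day liver, as in 31.3% of all genes. As called genes they were high at 7 days by selection, so this order adds no support.

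Mmp12, the macrophage metalloelastase, had 4.21, 3.74, 3.85 and 6.02 eRPKM in controls, 2.67, 3.18, 4.23 and 2.88 at 3 days, and 5.39, 7.25 and 7.62 at 7 days. It was called against 3 days (log2 fold change 0.96 ± 0.24 SE, adjusted p = 0.00904) but not against controls (0.56 ± 0.24 SE, adjusted p = 0.0858), where control liver 4 lay inside the 7-day livers. The call against 3 days was lost under 18 of 28 alternatives. Mmp8, the neutrophil collagenase, had 2, 3, 0 and 1 reads in controls, 0, 0, 2 and 0 at 3 days, and 10, 9 and 10 at 7 days (0.738, 0.598 and 0.745 eRPKM). The 7-day livers were above all others, and the fitted value (1.12 ± 0.25 SE against 3 days, adjusted p = 0.00471) depends on the pseudocount, since the other groups held 3 reads at most. Mmp8 reached the filter in 0 libraries outside the 7-day group, and its call was lost under 13 of 27 alternatives, among them a pseudocount of 0.1 and each 7-day liver left out.

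The count of 14 was 7 without 7-day liver 2 or 3 or with only the libraries with few low-level reads, 8 without 3-day liver 4 and 9 without 3-day liver 2. It was 8 with log2 Xist and 9 with log2 depth as a covariate, and 7 with only the libraries with more Xist than Ddx3y.

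Mmp12 and Mmp8 lie in a cluster on chromosome 9 that holds 10 of the 23 Mmp genes between 7272514 and 7699585 (mm9), in the order Mmp13, Mmp12, Mmp1b, Mmp3, Mmp1a, Mmp10, Mmp8, Mmp27, Mmp20 and Mmp7. It contains the collagenases, the stromelysins Mmp3 and Mmp10, which cut a wide range of matrix proteins, and the matrilysin Mmp7. Promoters of this cluster are known for binding sites of AP-1, the Fos and Jun factors. The 250 bases before each RefSeq start (GRCm38.p6) were searched for the letters TGANTCA, which read the same on both strands. A gene counted if any of its starts had them. This gave 8 of these 10 genes, against 4 of 39 members outside the cluster and 7.82% of 27025 genes. The matches are shown because neighbouring genes with the same letters differed widely in level. The 7 letters are in capitals, with 11 bases on each side, and each window is given 5′ to 3′ on the strand of the gene.

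Mmp13 (chr9:7272468-7272496, plus strand): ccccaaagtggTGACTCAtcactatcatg
Mmp12 (chr9:7347319-7347347, plus strand): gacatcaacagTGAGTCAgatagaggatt
Mmp1b (chr9:7388102-7388130, minus strand): gttacaaagccTGAGTCAtatagcctctg
Mmp3 (chr9:7445765-7445793, plus strand): ggaagcaattaTGAGTCAgttttcgggtg
Mmp1a (chr9:7464057-7464085, plus strand): gttgtcaaccaTGAGTCAcatagcctctg
Mmp10 (chr9:7502268-7502296, plus strand): tagcacccatgTGAGTCAtgcttagtgac
Mmp20 (chr9:7628125-7628153, plus strand): catttgagacaTGAATCAtcacttacagg
Mmp7 (chr9:7692016-7692044, plus strand): aagtgtgcaaaTGAGTCAcctatttccac

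The letters stood 35 bases before the start in Mmp13, 44 in Mmp12, 46 in Mmp3, 63 in both Mmp7 and Mmp10, 73 in Mmp1a, 93 in Mmp1b and 95 in Mmp20. Mmp12 and Mmp7 each have another RefSeq start, whose window (chr9:7344147-7344396 and chr9:7692091-7692340) holds 0 such letters. Which start was used in these livers was not tested. Of the genes with them, Mmp12 was well above the read floor in every liver (53 to 321 reads), while Mmp10 and Mmp1b had 0 reads in all 11 livers. A count of 0 allows up to 3 reads per library. Mmp13, a collagenase, had 0 to 3 reads in controls and at 3 days, and 1, 5 and 10 at 7 days. Mmp7 had 0, 1, 2 and 0 reads in controls, 2, 0, 0 and 6 at 3 days, and 9, 9 and 12 at 7 days, and was not called (adjusted p = 0.0166). Mmp8 and Mmp27 held no such letters in this window. Mmp27 had 84 reads in 7-day liver 2 against 15 and 23 in the others at 7 days.

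**Figure D4:**
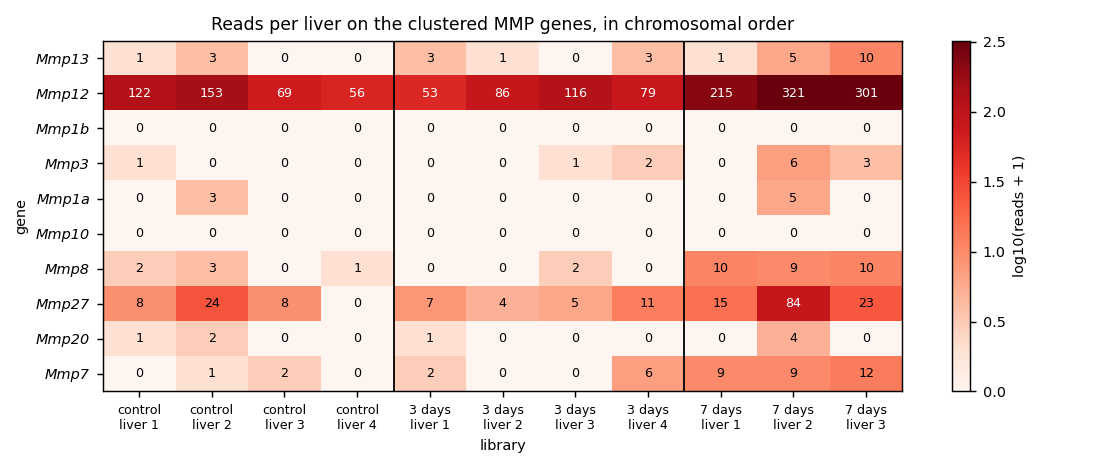
Reads on the 10 clustered Mmp genes (rows, in chromosomal order) in each of the 11 livers (columns, grouped as control, 3 days and 7 days); colour is log10(reads + 1) and the number in each cell is the read count. Mmp12 is the only row with at least 50 reads in every liver, and the rows of Mmp1b and Mmp10 are at 0 throughout.

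The hexamer GGAATG, the core of the site of TEAD, the DNA-binding partner of YAP, was searched in the same windows on both strands. It was found in 14.4% of 27025 genes and in 3 of 49 members with an entry (Adam19, Adamts13 and Timp1). Of the 16 members that rose at 7 days, 11 had an entry, 1 of which (Timp1) held the hexamer, at 247 bases before the start, and 0 of which held the AP-1 letters. In no member did the AP-1 and TEAD letters overlap.

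Of the 37 members below the filter, 35 had at least 1 read in some liver and 2 had none. They include ADAMs of sperm such as Adam2 and Adam3, whose highest counts in any liver were 5 and 4 reads. The number of these 37 genes with a read was 26 and 25 in control livers 1 and 2 and 32 in 7-day liver 2, against 10 to 19 elsewhere, which follows the same libraries as the low-level reads over all genes. Just outside the filter, Adam28, Adamts8 and Mmp28 reached 0.5 eRPKM in 2 libraries. Just inside it, Adamts12, Adamts4, Mmp17 and Mmp8 did so in 3.

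Exons of some members overlap those of a gene on the other strand in GENCODE M1 (mm9), and the reads were aligned without strand, so the 2 genes cannot be told apart there. This holds for Adam15, Adam17, Adam8, Adamts7, Mmp12, Mmp24, Mmp19 and Timp3 among the members given in full.

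Genes that act together with these proteases were grouped by role, not by their change, but with earlier results of these data known. Of 62 such genes, 44 were tested, and at 7 days against controls 15 had risen and 3 had fallen, where 18.0% of all genes were higher and 5.77% lower. Their median log2 fold change was 0.49, against 0.26 over all genes. The lists below are small, and their counts are to be read against the same shares. At 3 days none was called by limma or limma-voom, and 2 had an unadjusted p under 0.05 by limma, as had 1718 of all 14244 genes.

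Of 9 partners of ADAM10 and ADAM17, 8 were tested, of which 6 rose and 1 fell. Rhbdf1, an inactive rhomboid needed to bring ADAM17 to the cell surface, had 2.54, 4.02, 2.88 and 2.90 eRPKM in controls, 2.85, 9.37, 13.4 and 3.14 at 3 days, and 32.9, 38.8 and 35.1 at 7 days (log2 fold change 3.34 ± 0.42 SE, adjusted p = 7.37e-05). The 3-day livers were split, with livers 2 and 3 above all controls, and all stayed below the 7-day livers. Its paralogue Rhbdf2 went from 2.94 to 5.40 eRPKM in controls to 11.2 to 16.9 at 7 days (log2 fold change 1.74 ± 0.24 SE, adjusted p = 0.000153). Frmd8, which stabilises that complex, rose by less (0.86 ± 0.22 SE, adjusted p = 0.00867).

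Tetraspanins of the C8 group escort ADAM10 and set its substrates, and they moved in both directions. Tspan17 had 1.12, 2.15, 2.33 and 0.997 eRPKM in controls and 15.1, 20.7 and 19.6 at 7 days (log2 fold change 3.19 ± 0.29 SE, adjusted p = 7.79e-06). Tspan15 (1.38 ± 0.25 SE) and Tspan14 (0.92 ± 0.22 SE) rose as well. Tspan33 fell, from 11.1, 6.30, 6.17 and 9.11 eRPKM in controls to 1.29, 3.75 and 2.24 at 7 days (log2 fold change -1.61 ± 0.37 SE, adjusted p = 0.00411). Tspan5 was not called (0.69 ± 0.26 SE, adjusted p = 0.0552).

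Of 7 genes of plasminogen activation, a protease cascade that can activate pro-MMPs, 6 were tested, 2 of which rose and 1 fell (18.0% and 5.77% of all genes). Plaur, the urokinase receptor, had 0.771, 0.546, 1.5 and 0 eRPKM in controls and 19.9, 10.3 and 28.5 at 7 days (log2 fold change 4.11 ± 0.45 SE, adjusted p = 3.05e-05). Plau, urokinase itself, had 1.37, 2.16, 1.02 and 0.328 eRPKM in controls and 15.6, 12.4 and 23.1 at 7 days (log2 fold change 3.43 ± 0.36 SE, adjusted p = 2.38e-05). Plg, plasminogen, made by hepatocytes, fell from 118 to 232 eRPKM in controls to 85.7 to 97 at 7 days (log2 fold change -0.86 ± 0.21 SE, adjusted p = 0.00687). For these 3 genes the control and 7-day livers did not overlap. The part of depth in the fall of Plg was not tested.

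Of 10 genes listed under inhibitors and clearance, 7 were tested. Pcolce and Pcolce2, which enhance the removal of the procollagen C-propeptide, rose by 3.28 ± 0.44 (SE) and 2.34 ± 0.27 on the log2 scale. They are enhancers, and no inhibitor or clearance gene of the list was called higher. Tfpi2, a Kunitz-type inhibitor of serine proteases, had 81.4, 68.8, 81.3 and 83.9 eRPKM in controls and 19.2, 18.4 and 17.6 at 7 days (log2 fold change -2.07 ± 0.24 SE, adjusted p = 4.53e-05). Reck, a membrane inhibitor of MMP9 and MMP14, was not called (0.02 ± 0.31 SE, adjusted p = 0.962), nor was Lrp1, the endocytic receptor that clears MMP and TIMP complexes (0.16 ± 0.19 SE, adjusted p = 0.534).

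Among the other lists, Cd44, which docks MMP9 at the cell surface, rose by 2.24 ± 0.27 (SE) on the log2 scale, as did Adamdec1, an ADAM-like enzyme of macrophages (2.21 ± 0.31), Ctss, cathepsin S (1.47 ± 0.27), Adamtsl1 (1.93 ± 0.31) and Adamtsl2 (0.92 ± 0.22). Basigin (Bsg), an inducer of MMPs, was high throughout and was not called (0.04 ± 0.18 SE, adjusted p = 0.885). None of the 4 convertases tested was called by limma, with 1 at an unadjusted p under 0.05, and none of the 3 ADAMTS substrates tested was called, with 0 at that level. By limma-voom 0 genes of these last lists were called either. Of all related genes it called 15 higher and 4 lower, where 19.7% of all genes were higher and 6.66% lower.

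**Figure D5:**
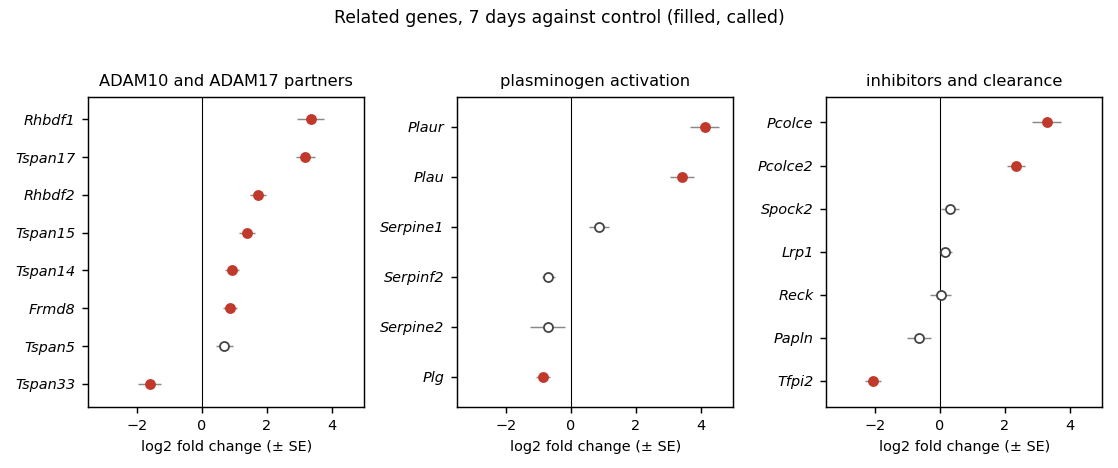
Log2 fold change (horizontal axes, ± SE) at 7 days against controls of the tested genes of 3 lists: partners of ADAM10 and ADAM17, plasminogen activation, and inhibitors and clearance; filled points were called. Rhbdf1, Tspan17, Plaur, Plau, Pcolce and Pcolce2 lie above 2, and Tspan33, Plg and Tfpi2 are filled on the left. Pcolce and Pcolce2 are drawn with the inhibitors and clearance genes but are enhancers of procollagen processing.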

How the data were processed

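RNA-seq of 11 mouse livers (4 controls, 4 at 3 days, 3 at 7 days) was analysed from 1 table of the series. Per the submitters' processing notes and the methods of the study, the authors aligned TruSeq v2 reads to mm9 with TopHat2 2.0.8, counted them with featureCounts 1.4.5-p1 and deposited them as eRPKM, an RPKM over exons. The strand was not used in alignment. The table also holds 3 columns of the authors' own DESeq2 comparison (base mean, log2 fold change and adjusted p), which were not used.

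Of 20893 genes, 14244 reached 0.5 eRPKM in 3 or more libraries and were kept. log2(eRPKM + 0.5) was fitted with limma 3.58.1 (R 4.3.3, empirical Bayes with trend), the 3 groups in 1 fit, with Benjamini-Hochberg adjustment over all genes tested. Fold changes are on this scale and so are understated where levels are low. The thresholds for a call were those of the study, 0.01 for the adjusted p and 0.5 for the size of the log2 fold change. Read counts were recovered from the steps of the eRPKM: 100% of 177553 values came within 0.1 of a whole number. These gave the depth and the limma-voom alternative. The read floor was 3 and covers counting error only. Each ± SE comes from the limma fit and reflects the spread between livers. Python 3.11.15 with pandas 2.3.3, numpy 2.4.6 and matplotlib 3.10.9 did the rest, and the fit was tested on simulated data.

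Members, gene lists and tests were chosen with earlier results of these data known. Values in full were given for every called member (up to 30), all 4 Timp genes and every member with a mean of at least 5 eRPKM, and among related genes for up to the 6 largest called changes of a list. Mmp2, Mmp7, Mmp13, Mmp27, Adam2, Adam3, Adam4, Adam11, Adamts5, Adamts6, Adamts14, Tspan5, Reck, Lrp1 and Bsg were named after their values were seen. Alternatives were another pseudocount (1 or 0.1), no filter, a filter at a mean of 1 eRPKM, size factors by median ratio, quantile normalization, only the compared groups, no trend, robust variance, a replicate block, covariates for Xist, depth and a label suffix, only libraries with more Xist than Ddx3y, each liver left out, limma-voom, and a looser call (adjusted p below 0.05, no fold limit). One more, using only the libraries with few low-level reads, was chosen after seeing the data. Promoters came from RefSeq (GRCm38.p6) and gene positions from GENCODE M1 (mm9), and no coordinate was converted between builds.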

Additional observations from a re-analysis of the deposited data

Results flagged for a closer look

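In 4 of 49 sets of 4 livers, a single liver stood far from the other 3, by the gap to its nearest neighbour over the range of the set. Chance gives about 1 in 20 such sets. Adam9 was low in control liver 4, at 22.3 eRPKM against 35.7 to 36.4 in the other controls (gap over range 0.947). Adamts7 was low in the same liver, at 1.13 eRPKM from 8 reads against 2.90 to 3.23 (0.843), and this liver had the fewest reads of all libraries. Mmp8 in 3-day liver 3 (gap over range 1) rests on 2 reads against 0. Timp1 in 3-day liver 1 (0.961) rests on 1 read in each liver, so its levels differ only through the scaling to library size. For Adam9, Adamts7 and Mmp8 the part of depth in these values was not tested.

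The level differed between the 3-day and 7-day livers for 14 members, tested as the difference of 7 from 3 days with limma at an adjusted p under 0.01. The 3-day livers had 3 days of doxycycline, while the 7-day livers and the controls had 7 days. No control matched the 3-day livers, so this difference cannot be assigned to YAP alone. The part of the days on doxycycline was not tested. On the log2 scale Mmp9 differed by 4.89, Timp2 by 2.89, Adam33 by 2.73, Adamts2 by 1.93 and Adam15 by 1.82. Adamts4 differed by 1.66, Adam8 by 1.45, Mmp14 by 1.44, Adamts1 by 1.32, Mmp24 by 1.30 and Adamts10 by 1.19. Mmp8 differed by 1.12, Mmp12 by 0.957 and Adam10 by 0.729. All 14 were higher at 7 days, and the 7-day livers had the highest median depth. Xist had more reads than Ddx3y in all 3 livers at 7 days and in 2 of 4 at 3 days.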

How the results depend on the processing

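Under 28 alternatives, 965 of 1139 values of named genes kept their direction and their side of the threshold, 162 lost a call, 8 gained one and 4 changed sign. The 4 that changed sign were not called: Adam23 against controls (0.00041 without 7-day replicate 3, and from -0.31 to 0.00041 with 1 liver left out), Mmp12 against controls (-0.090 with quantile normalization), Timp3 against controls (0.062 with only libraries with few low-level reads) and Adamts5 at 3 days (-0.11 with only libraries with more Xist than Ddx3y). Against controls, the members called higher numbered 16, and 7 with log2 depth as a covariate, 8 with only libraries with more Xist than Ddx3y, 8 with only libraries with few low-level reads and 9 to 17 with 1 liver left out. Against 3 days they numbered 14, and 8 with log2 Xist and 9 with log2 depth as a covariate, 7 with only libraries with more Xist than Ddx3y, 7 with only libraries with few low-level reads and 7 to 18 with 1 liver left out. No member was called lower, but 2 were with size factors in each comparison. With quantile normalization 5 were lower against controls and 2 against 3 days. With a looser call (adjusted p below 0.05, no fold limit) 1 was lower in each comparison. At 3 days 0 members were called under any alternative. Apart from what a setting itself removes (livers, genes), the cause was not tested.

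The replicate numbers did not pair the samples: the deviations of same-numbered livers correlated at -0.22 to 0.27 over 10 pairs, 2 of them above 0.1. With a replicate block, 13 members were higher against controls, 10 against 3 days and 0 at 3 days. Members with few reads in controls, such as Timp1 and Mmp8, are limited by depth.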
